A study of Homo sapiens with 9 samples.

Results

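The unfolded protein and amino acid stress genes are 32 genes chosen by name, of which 31 had a probe on the arrays, out of 18852 genes measured in all. Each gene was read through its annotated probe, under a current or an older symbol, and where there were several, through the one with the highest mean log2 intensity. HERPUD1 had no matched probe and was not analysed here. The arrays came from IGROV-1, a human ovarian carcinoma line, and from a pair of platinum-resistant variants raised from it, with 3 arrays for each line and 9 in all. IGROV-1/Pt1 (Pt1) is labelled cisplatin-resistant, IGROV-1/OHP (OHP) is labelled oxaliplatin-resistant, and the IGROV-1 cells they came from are labelled parental. For OHP the label was followed here, while the design text of the series gives cisplatin as the drug used to select both variants. Cells of all 3 lines were harvested while growing exponentially, and no drug given at harvest is named. Each variant is 1 line of its own, so that a difference between lines cannot be told apart from a difference between these particular derivatives.

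Proteins that enter the endoplasmic reticulum (ER) are folded there by chaperones and by enzymes that form disulfide bonds, and those that fail are sent back to the cytosol and destroyed. When unfolded proteins pile up, the membrane sensors IRE1 (the product of ERN1), PERK (EIF2AK3) and ATF6 switch on the unfolded protein response: IRE1 splices the mRNA of XBP1, a cleaved form of ATF6 enters the nucleus, and PERK phosphorylates the translation initiation factor eIF2. Lack of amino acids leads to the same phosphorylation through the kinase GCN2, and this shared arm, the integrated stress response, raises translation of the transcription factor ATF4, whose targets include amino acid enzymes and transporters, aminoacyl-tRNA synthetases and further stress factors. Splicing of XBP1, translation of ATF4 and phosphorylation are not read by these arrays, which measured total RNA.

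The deposited values are intensities on a linear scale, already normalized between arrays, with a median of 228.2 to 228.3 on every array. A gene was taken as above background where its intensity passed 302.1, a ceiling that nearly all of 427 olfactory receptor probes stay under, and 10302 to 10517 genes did so per array. Of the 31 genes, 29 were above it on all 3 arrays of at least 1 line. PDIA3, a disulfide isomerase, and ERN1 were at or under it on all 9 arrays and have no fold. OHP array 2 stood apart: over genes, which are not independent replicates, it correlated at 0.942 and 0.926 with OHP arrays 1 and 3, against 0.956 with parental array 2. On it, 9 of the 31 genes (29%) lay at least 2-fold from the mean of the other OHP arrays, against 38.4% of the 8952 genes above background on all 9 arrays. Calls, their counts and the differences of OHP from parental cells whose sign it turned are given with and without it. Parental array 2 was kept in those fits, although deviations from the line means correlated at 0.671 between it and OHP array 2. A fit without both was not run. The epithelial markers KRT19 (12380 to 66710) and PAX8 (8633 to 28350) were above background on all 9 arrays, while WT1 was under it. Above background on all arrays of a line were 5 of 6 epithelial markers, 0 of 3 leukocyte markers (PTPRC, CD3E and ITGAM), 1 of 4 fibroblast markers (PDGFRA, 333.9 to 680.8, with DCN and LUM under it on all 9) and 2 of 3 endothelial markers (VWF, 838.9 to 9604, and PECAM1, 314.5 to 509.8). KRT19 was lower in Pt1 (-1.12 on the log2 scale, limma adjusted p = 0.00566) and in OHP (-1.98, adjusted p = 0.000291) than in parental cells, whereas KRT8 was higher in Pt1 (1.45, adjusted p = 0.0104), as was KRT18 (2.77, adjusted p = 0.0445), and their part in the results was not tested. The third endothelial marker, CDH5, was above background on 2 of 3 Pt1 arrays and on none of the parental ones. Fewer cells that express a gene and less RNA per cell cannot be told apart in such samples.

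Promoter sequences show which of these genes carry the DNA elements that the stress factors are known to bind. RefSeq windows from 250 bases before to 50 bases after the transcription start (GRCh38.p14) were matched by symbol for 29 of the 31 genes, and they were searched on both strands for 4 motifs. The ER stress response element (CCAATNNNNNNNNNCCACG), bound by ATF6 together with NF-Y, was found in 4 of 10 windows of chaperones and folding enzymes (40.0%) and in that of XBP1, against 27 of 35116 promoters of all genes (0.0769%). Each match is shown here on its own strand with 5 bases either side and the motif in capitals, because these genes are the classical chaperone targets.
HSPA5, chr9:125241386-125241414, minus strand: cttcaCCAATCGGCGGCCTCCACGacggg
HSP90B1, chr12:103930211-103930239, plus strand: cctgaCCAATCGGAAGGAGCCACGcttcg
HSP90B1, chr12:103930316-103930344, minus strand: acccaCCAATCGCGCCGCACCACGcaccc
CALR, chr19:12938379-12938407, minus strand: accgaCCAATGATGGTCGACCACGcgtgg
CANX, chr5:179698773-179698801, plus strand: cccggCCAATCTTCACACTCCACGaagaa
XBP1, chr22:28800598-28800626, minus strand: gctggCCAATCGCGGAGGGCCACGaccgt
The ATF4 composite element (TGATGNAA) was found in the windows of ATF3, CHAC1 and ASNS among the 31 genes, against 3.62% of all promoters. It was also found in 5 of 9 windows of the measured aminoacyl-tRNA synthetases (55.6%), those of AARS1, IARS1, MARS1, NARS1 and TARS1. The members' matches are shown in the same way.
ATF3, chr1:212565211-212565228, plus strand: caggaTGATGGAAggctg
CHAC1, chr15:40953257-40953274, minus strand: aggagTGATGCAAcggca
ASNS, chr7:97872464-97872481, minus strand: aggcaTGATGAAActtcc
The XBP1 core (GCCACGT), present in 3.22% of all promoters, was matched in EIF2AK3, and the cyclic AMP response element (TGACGTCA), present in 1.85%, in PPP1R15A, at positions -58 to -51 from the start. A match is a description of these letters and not of binding in these cells.

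The whole windows follow for PDIA4 and PPP1R15A, the genes of the list that passed the test between lines. Neither the ER stress response element nor the other 3 motifs was matched in the PDIA4 window, and the capitals in the PPP1R15A window mark the cyclic AMP response element.
PDIA4, chr7:149028441-149028740, minus strand: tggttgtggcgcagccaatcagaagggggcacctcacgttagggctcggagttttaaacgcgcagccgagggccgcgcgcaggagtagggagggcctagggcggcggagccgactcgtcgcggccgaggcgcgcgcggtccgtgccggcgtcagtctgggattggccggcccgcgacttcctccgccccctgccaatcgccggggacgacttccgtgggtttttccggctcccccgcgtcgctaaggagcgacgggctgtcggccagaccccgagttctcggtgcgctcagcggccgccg
PPP1R15A, chr19:48872171-48872470, plus strand: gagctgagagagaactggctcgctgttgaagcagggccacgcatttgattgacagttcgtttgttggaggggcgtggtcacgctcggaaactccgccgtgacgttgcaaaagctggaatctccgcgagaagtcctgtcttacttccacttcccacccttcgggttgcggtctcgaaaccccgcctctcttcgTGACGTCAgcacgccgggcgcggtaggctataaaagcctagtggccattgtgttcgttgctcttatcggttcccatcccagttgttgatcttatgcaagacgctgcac

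Few of these genes passed the test between lines. Against parental cells, PDIA4 fell in Pt1 and 30 of 31 genes did not pass. No gene of the list passed in OHP against parental cells in the main fit, which did not pair arrays. With the replicate number as a block, 1 did, PSAT1 (limma adjusted p = 0.0288). Between the variants, PPP1R15A was higher in OHP than in Pt1. The test was limma's moderated test on log2 values after normexp background correction, over all 9 arrays, with p-values adjusted by Benjamini-Hochberg over all 18852 genes in a comparison. Adjusted values under 0.05 are spoken of as called or passed.

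In Pt1 against parental cells, 1 of 31 genes was called, against 9.88% of all genes (4.15% higher and 5.73% lower). In OHP against parental cells it was 0 of 31, against 5.41% of all genes (1.75% higher and 3.67% lower), and 3 of the 31 had an unadjusted p under 0.05. With the replicate number as a block it was 1 of 31, with 1021 of all genes called. In OHP against Pt1 it was 1 of 31, against 7.59% (3.51% higher and 4.07% lower). All genes here include those at background. In a fit of the 10701 genes above background on all arrays of a line, 1846, 995 and 1443 were called in these comparisons. The counts of the list stayed the same in that fit. The moderated F-test over the 3 lines called 2 of the 31, PDIA4 (adjusted p = 0.0268) and PPP1R15A (adjusted p = 0.0458), against 12.3% of all genes. The median log2 difference of the 31 genes, with PDIA3 and ERN1 at background included, was -0.28 in Pt1 against parental cells, where that of all genes was -0.02. It was -0.02 in OHP against parental cells, with -0.01 for all genes, and 0.16 in OHP against Pt1, with 0.01 for all genes.

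OHP array 2 bore on these counts even where OHP was not compared, because the spread is shared over the 9 arrays. Without it, 10 of 31 genes (32.3%) were called in Pt1 against parental cells, 3 higher and 7 lower, against 25.9% of all genes (11.8% higher and 14.1% lower). In OHP against parental cells 6 were called (19.4%), 4 higher and 2 lower, against 16.7% of all genes (7.00% higher and 9.70% lower). In OHP against Pt1 4 were called (12.9%), 2 higher and 2 lower, against 12.2% (5.63% higher and 6.55% lower). These shares of all genes count genes at background too, and shares of genes above background alone were not worked out without that array.

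**Figure D1:**
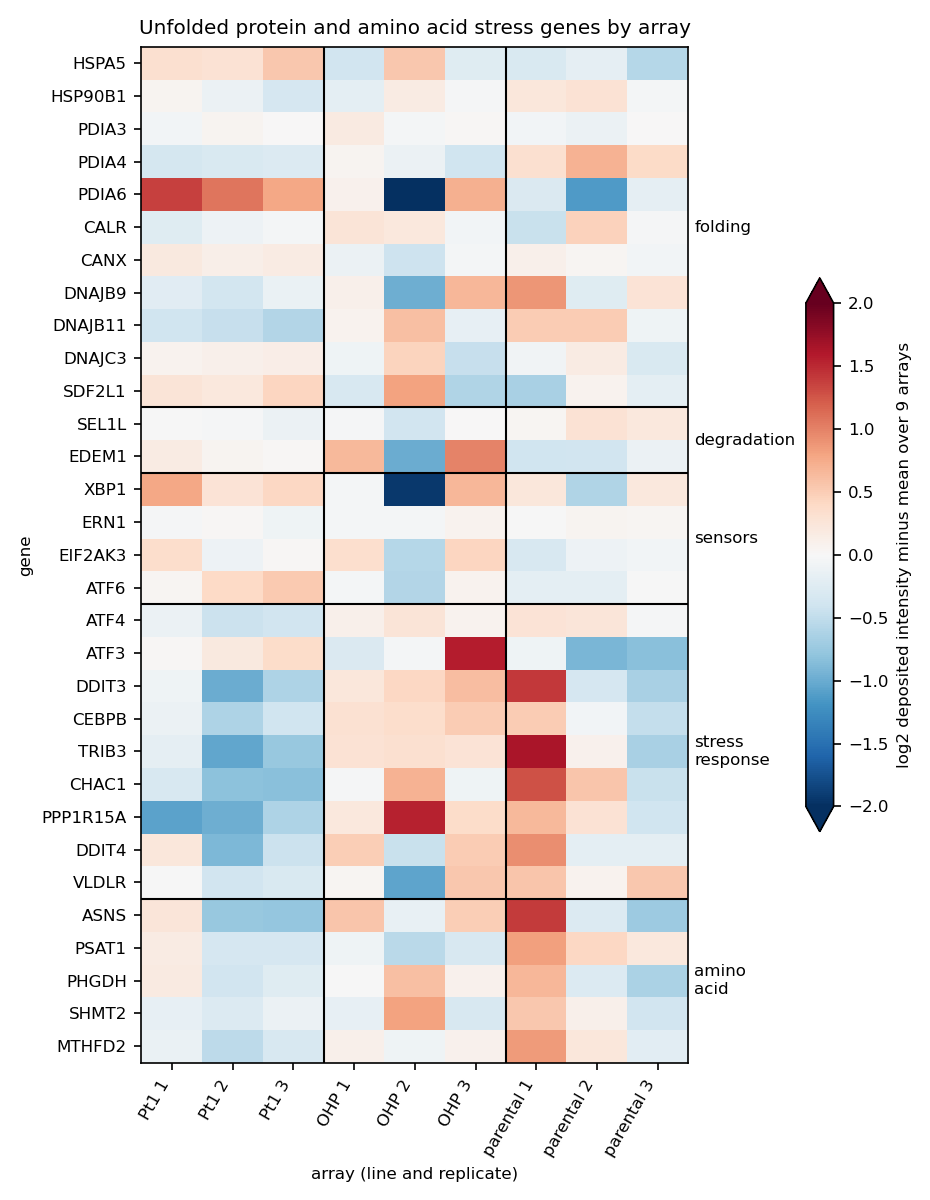
Log2 deposited intensity of each of the 31 measured genes (rows, by role) on each of the 9 arrays (columns, by line and replicate), minus that gene's mean over the 9 arrays. Red is above the gene's mean and blue below it, colours stop at 2 on either side, and PDIA3 and ERN1 are at or under background on every array. PDIA6 is highest on the Pt1 arrays and PPP1R15A on OHP array 2. Among the parental arrays, the stress response and amino acid rows are highest on array 1.

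Among the 11 chaperones and folding enzymes, 1 was called, PDIA4, in Pt1 against parental cells. Their log2 differences in that comparison ran from -0.81 to 1.64, with 6 above and 5 below 0. The 6 include PDIA3, which was at background on every array. PDIA4, a disulfide isomerase of the ER lumen, had intensities of 1989, 2041 and 2088 on the Pt1 arrays, 2622, 2321 and 1921 on the OHP arrays and 3174, 4112 and 3287 on the parental arrays. Every array of both variants was below every parental array. In Pt1 it was 1.75-fold lower than in parental cells, a log2 difference of -0.81 ± 0.17 (SE, n = 3 arrays each, limma adjusted p = 0.0169). In OHP the difference from parental cells was -0.65 ± 0.17, which did not pass (limma adjusted p = 0.0698), and OHP and Pt1 overlapped (0.16 ± 0.17, 95% interval -0.23 to 0.55). Without OHP array 2, PDIA4 fell in both variants, at limma adjusted p = 0.00303 in Pt1 and 0.0292 in OHP. With 1 other array left out, the call in Pt1 ended without Pt1 array 1, 2 or 3 (0.0717, 0.0691 and 0.0609) or parental array 2 (0.0752).

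HSPA5 (BiP), the main ER Hsp70 chaperone, which also holds the stress sensors inactive, had intensities of 3253, 3196 and 3777 on the Pt1 arrays, 1996, 3774 and 2211 on the OHP arrays and 2116, 2310 and 1752 on the parental arrays. The Pt1 arrays were all above the parental ones, while OHP array 2 read like the Pt1 arrays and the other OHP arrays like the parental ones. The log2 difference of Pt1 from parental cells was 0.76 ± 0.25 (limma adjusted p = 0.0961). Without OHP array 2, with the same difference, HSPA5 passed as higher in Pt1 than in parental cells (adjusted p = 0.00318) and as lower in OHP than in Pt1 (-0.72, adjusted p = 0.0175).

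DNAJB11, an Hsp40 partner of BiP in the ER, had intensities of 15380, 14790 and 13560 on the Pt1 arrays, 21340, 31040 and 18190 on the OHP arrays and 29000, 28950 and 19230 on the parental arrays. All Pt1 arrays were below all arrays of the other lines. The log2 difference of Pt1 from parental cells was -0.80 ± 0.24 (limma adjusted p = 0.0687), and it passed without OHP array 2 (adjusted p = 0.00499). HSPA5 and its partner DNAJB11 thus had fitted differences of opposite sign in Pt1.

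PDIA6, a further disulfide isomerase, had intensities of 10180, 8301 and 6732 on the Pt1 arrays, 4196, 732.2 and 6482 on the OHP arrays and 3242, 1791 and 3480 on the parental arrays. The Pt1 arrays were above all others, and OHP array 2 was the lowest of the 9. Its log2 difference of Pt1 from parental cells was 1.64 ± 0.71 (limma adjusted p = 0.213), and without OHP array 2 it passed (adjusted p = 0.000409). In OHP against parental cells the difference was -0.04 with all arrays and 0.96 without OHP array 2 (adjusted p = 0.0391), so that 1 array turned its sign. Parental array 2, the lowest of its line for PDIA6, was kept in that fit. SDF2L1, a partner of ER chaperones, had intensities of 25560, 24770 and 28680 on the Pt1 arrays, 17110, 37200 and 14060 on the OHP arrays and 13610, 22560 and 18720 on the parental arrays. Again the Pt1 arrays were above the parental ones and OHP array 2 was the highest of all. The log2 difference of Pt1 from parental cells was 0.56 ± 0.34 (limma adjusted p = 0.403), and without OHP array 2 it passed (adjusted p = 0.0462), as did that of OHP from Pt1 (-0.76, adjusted p = 0.0308). The difference of OHP from parental cells was 0.21 with all arrays and -0.21 without OHP array 2. Parental array 2, the highest of its line for SDF2L1, was kept in that fit.

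**Figure D2:**
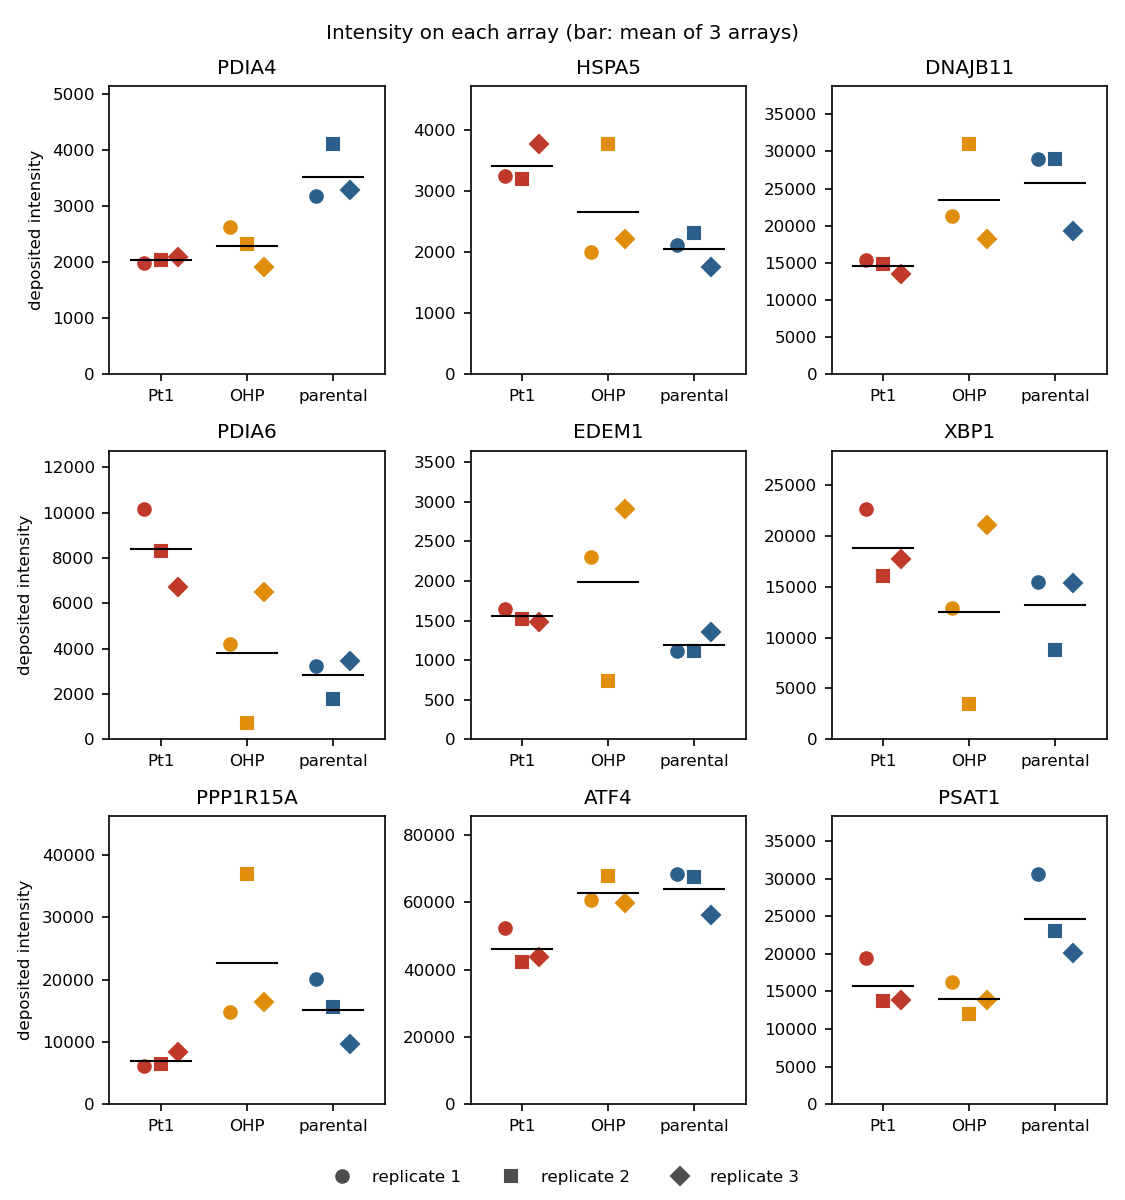
Deposited intensity (linear axis from 0) of 9 of the genes on each array, by line, with the marker shape giving the replicate and the bar the mean of 3 arrays. The PDIA4 points of both variants lie under the parental points, the PPP1R15A points of Pt1 lie under those of both other lines, and the square of OHP array 2 lies far from the other OHP points for PDIA6, XBP1, EDEM1 and PPP1R15A.

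For the remaining chaperones no difference passed. HSP90B1 (GRP94), the Hsp90 of the ER, had a log2 difference of -0.29 ± 0.18 in Pt1 and of -0.17 ± 0.18 in OHP against parental cells. The lectin chaperones CALR and CANX, which hold newly made glycoproteins, had -0.12 ± 0.23 and 0.14 ± 0.15 in Pt1, and 0.14 ± 0.23 and -0.22 ± 0.15 in OHP. CANX on OHP arrays (4152, 3390 and 4375) was below all Pt1 arrays (5187, 4901 and 5073), at a log2 difference of -0.36 ± 0.15 (limma adjusted p = 0.212). The J-domain proteins DNAJB9 and DNAJC3 had -0.57 ± 0.42 and 0.21 ± 0.27 in Pt1. None of these 5 genes passed in any of the 3 comparisons. In OHP against parental cells the difference of DNAJB9 was -0.40 with all arrays and 0.09 without OHP array 2, and that of DNAJC3 was 0.04 and -0.25. Parental array 2, the lowest of its line for DNAJB9 and the highest for DNAJC3, was kept in that fit.

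Degradation of misfolded proteins was represented by SEL1L, the adaptor of the HRD1 ubiquitin ligase, and EDEM1, which marks misfolded glycoproteins for removal. SEL1L had intensities of 462.2, 461.4 and 432.7 on the Pt1 arrays, 457.9, 357.5 and 470.2 on the OHP arrays and 478, 572.4 and 542.4 on the parental arrays. Both variants were below parental cells on every array, by differences that did not pass (-0.28 ± 0.18 in Pt1, limma adjusted p = 0.423, and -0.40 ± 0.18 in OHP, adjusted p = 0.319). EDEM1 had 1650, 1520 and 1488 on the Pt1 arrays, 2309, 735.6 and 2914 on the OHP arrays and 1115, 1119 and 1351 on the parental arrays. The Pt1 arrays were above the parental ones, and the OHP arrays held both the highest and the lowest value. Without OHP array 2, EDEM1 passed as higher in OHP than in parental cells (log2 difference 1.19, limma adjusted p = 0.000462) and than in Pt1 (0.78, adjusted p = 0.0106). With all arrays the difference of OHP from parental cells was 0.54 ± 0.46.

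None of the 4 sensors and their factors passed with all arrays. XBP1, whose spliced form drives the IRE1 arm, had intensities of 22650, 16080 and 17670 on the Pt1 arrays, 12860, 3486 and 21070 on the OHP arrays and 15440, 8784 and 15380 on the parental arrays. Pt1 was above parental cells on every array (0.55 ± 0.56, limma adjusted p = 0.659), and array 2 was the lowest of each line. Its difference of OHP from parental cells was -0.39 with all arrays and 0.37 without OHP array 2, with parental array 2 kept. ATF6 had 2698, 3443 and 3759 on the Pt1 arrays, 2553, 1744 and 2750 on the OHP arrays and 2299, 2290 and 2606 on the parental arrays. All Pt1 arrays exceeded all parental arrays for it, at 0.46 ± 0.22 (adjusted p = 0.248), while OHP differed from parental cells by -0.06 with all arrays and by 0.15 without OHP array 2. EIF2AK3 had 843.4, 618.4 and 672.2 on the Pt1 arrays, 836, 443.6 and 891.8 on the OHP arrays and 526.4, 615.4 and 635.7 on the parental arrays. Its lines overlapped, and without OHP array 2 it passed as higher in OHP than in parental cells (0.64, limma adjusted p = 0.038). ERN1 was under background throughout.

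The 9 factors and effectors of the integrated stress response included 1 called gene, PPP1R15A (GADD34), the subunit that directs protein phosphatase 1 to eIF2 and so ends the translational block. Its intensities were 14790, 37030 and 16480 on the OHP arrays, 6104, 6510 and 8366 on the Pt1 arrays and 20100, 15580 and 9681 on the parental arrays. Every Pt1 array was below every array of OHP and of parental cells, while OHP and parental cells overlapped. PPP1R15A was 3.03-fold higher in OHP than in Pt1, a log2 difference of 1.60 ± 0.37 (SE, n = 3 arrays each, limma adjusted p = 0.0304). In Pt1 against parental cells the difference was -1.07 ± 0.37 (adjusted p = 0.116), and in OHP against parental cells 0.53 ± 0.37 (adjusted p = 0.597), or 0.11 without OHP array 2. Without OHP array 2 the difference of OHP from Pt1 was 1.18 ± 0.26 (adjusted p = 0.00848), and PPP1R15A also fell in Pt1 against parental cells (adjusted p = 0.00387). With 1 other array left out, the call of OHP against Pt1 ended without Pt1 array 1, 2 or 3 (0.126, 0.121 and 0.0747) or parental array 2 (0.0545), and it ended in a fit of the 2 lines alone (0.0633).

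In OHP against Pt1, all 9 genes of this role had a fitted difference above 0, with a median of 0.77 against 0.01 for all genes. With 1 array left out in turn, 7 to 9 of them did, with medians of 0.65 to 0.89. In Pt1 against parental cells, 8 of the 9 had one below 0 and 1, ATF3, above 0, with a median of -0.62 against -0.02 for all genes. In OHP against parental cells, 5 were above and 4 below 0, with a median of 0.01. All 9 were highest among the parental arrays on parental array 1. Without that array the median was -0.39 in Pt1 against parental cells, with 8 of 9 still below 0, and 0.59 in OHP against parental cells, with 8 of 9 above 0. These comparisons share arrays, and apart from PPP1R15A none of the 9 passed in any of them. For 6 of the 9 (66.7%) every OHP array was above every Pt1 array, as it was for 13.9% of all genes, those at background included. Without OHP array 2, ATF4, CHAC1, PPP1R15A and VLDLR were called lower in Pt1 than in parental cells, 4 of 9, against 14.1% of all genes called lower in that setting.

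ATF4 had intensities of 52260, 42350 and 43780 on the Pt1 arrays, 60710, 67930 and 59850 on the OHP arrays and 68490, 67380 and 56120 on the parental arrays. All Pt1 arrays were below all others. The log2 difference of Pt1 from parental cells was -0.47 ± 0.16 (limma adjusted p = 0.102, and 0.0383 without OHP array 2). Its probes disagreed: the other ATF4 probes gave 0.22 ± 0.24 and -0.87 ± 0.39 in the same comparison, and the highest intensity on any array was 71072.4, close to the level of this probe.

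CEBPB, a partner and target of ATF4, had intensities of 38450, 39500 and 44320 on the OHP arrays, 28570, 20380 and 23620 on the Pt1 arrays and 44100, 29810 and 22460 on the parental arrays. OHP was above Pt1 on every array (0.77 ± 0.25, limma adjusted p = 0.104), and the parental arrays overlapped both. DDIT3 (CHOP), a stress factor linked to cell death, had 5073, 5772 and 6674 on the OHP arrays, 4109, 2184 and 2827 on the Pt1 arrays and 11550, 3455 and 2775 on the parental arrays. OHP was again above Pt1 throughout, at 1.01 ± 0.48 (adjusted p = 0.275), with the highest value on parental array 1. TRIB3, a pseudokinase that restrains ATF4 and CHOP, had 5692, 5788 and 5621 on the OHP arrays, 4083, 2253 and 2756 on the Pt1 arrays and 14440, 4921 and 2961 on the parental arrays. The OHP arrays were nearly alike, the parental arrays reached from the level of Pt1 to well above OHP, and the difference of OHP from Pt1 was 0.98 ± 0.49 (adjusted p = 0.3).

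CHAC1, an enzyme that degrades glutathione, had intensities of 426.6, 301.9 and 298.9 on the Pt1 arrays, 523.5, 857.3 and 503.7 on the OHP arrays and 1280, 781.1 and 392.7 on the parental arrays. In Pt1 it was above background on 1 of 3 arrays. The log2 difference of Pt1 from parental cells was -1.38 ± 0.47 (limma adjusted p = 0.106, and 0.0141 without OHP array 2). DDIT4 (REDD1), an inhibitor of mTORC1, and VLDLR, a lipoprotein receptor induced through ATF4, had -0.54 ± 0.41 and -0.62 ± 0.36 in the same comparison. VLDLR passed as lower without OHP array 2 (adjusted p = 0.0302).

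ATF3, a repressor induced by ATF4, was the exception to the sign of the role in Pt1. It had intensities of 1512, 1709 and 1917 on the Pt1 arrays, 1220, 1451 and 4424 on the OHP arrays and 1405, 788.5 and 829.1 on the parental arrays. All Pt1 arrays were above all parental arrays (0.88 ± 0.46, limma adjusted p = 0.316), and OHP array 3 held the highest value. The difference of OHP from parental cells was 1.10 ± 0.46 (adjusted p = 0.273), and it passed without OHP array 2 (1.34, adjusted p = 0.0467). Both other ATF3 probes were under background on all 9 arrays and give no direction.

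**Figure D3:**
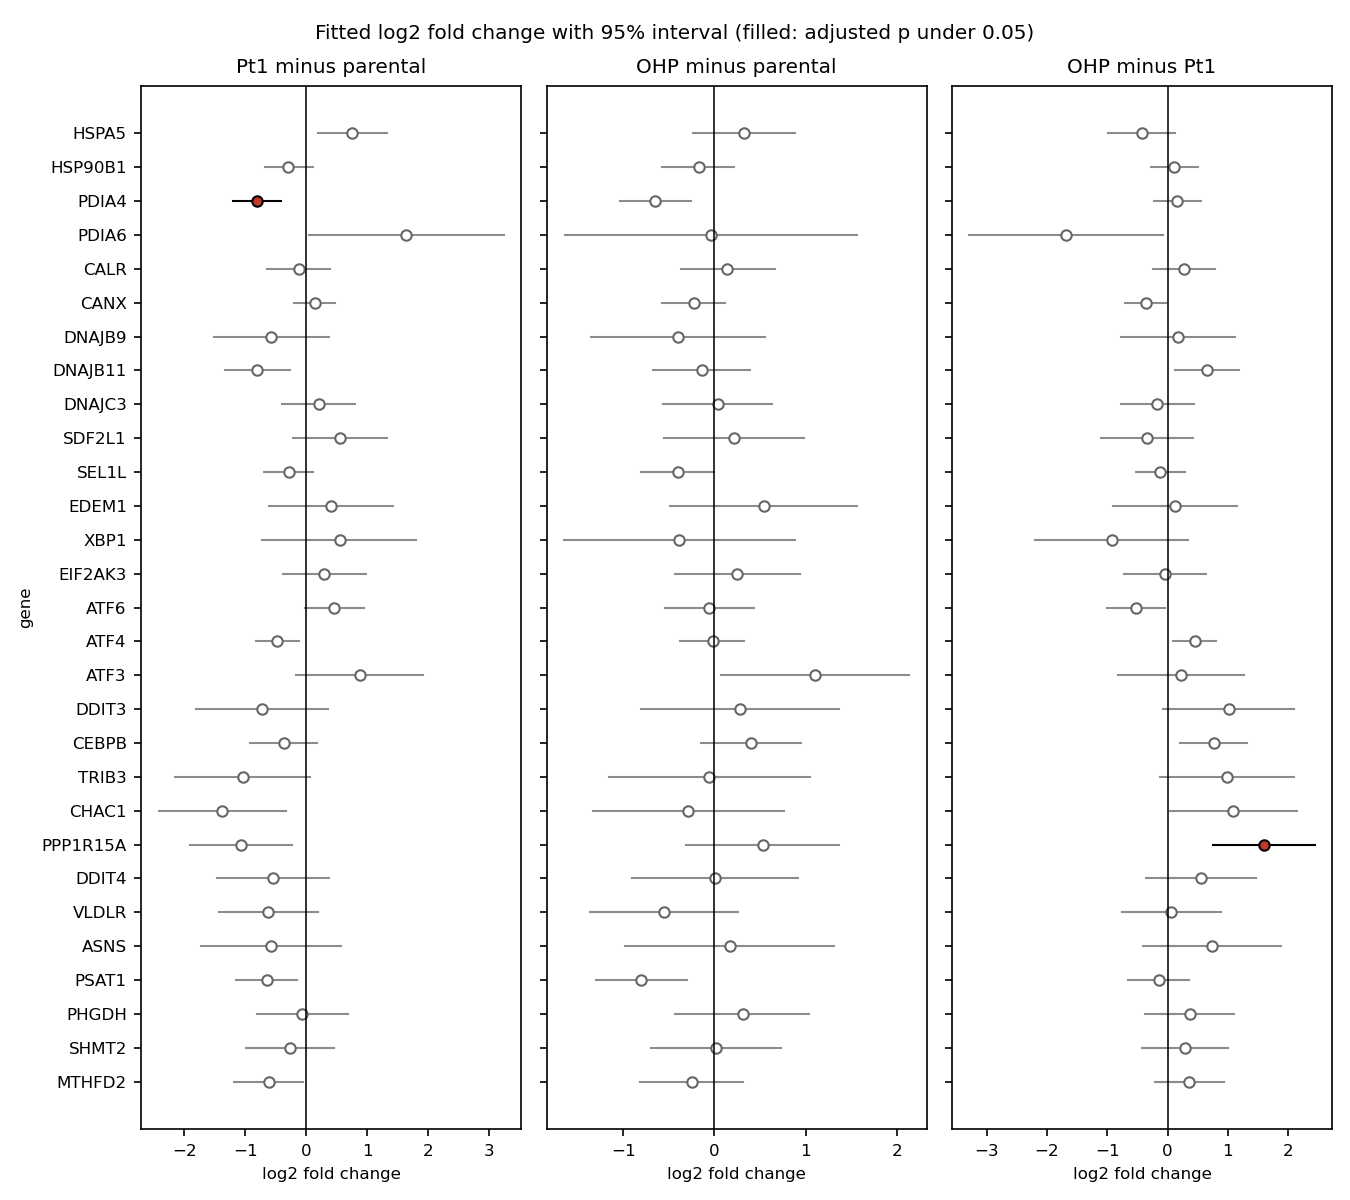
Log2 difference of each gene (rows, by role) in the 3 comparisons (panels), with points for the fitted difference, filled where called, and lines for its 95% interval from limma, n = 3 arrays per line. The panels differ in scale. PDIA3 and ERN1, at or under background on every array, are left out. The intervals of most genes cross 0, PDIA4 lies below 0 in Pt1 against parental cells (-0.81) and PPP1R15A above 0 in OHP against Pt1 (1.60).

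None of the 5 amino acid and one-carbon enzymes passed in any comparison in the main fit of all arrays. In Pt1 against parental cells all 5 had fitted differences below 0, from -0.65 to -0.06 with a median of -0.57, and in OHP against parental cells 2 of 5 did, with a median of 0.02. All 5 were highest among the parental arrays on parental array 1, and without that array 3 of 5 were below 0 in Pt1, with a median of -0.04, ASNS and PHGDH being above 0. In OHP the median was then 0.25, with 1 of 5 below 0. It was -0.19 without OHP array 2, with 3 of 5 below 0. PSAT1, which makes phosphoserine for serine synthesis, had intensities of 19470, 13730 and 13810 on the Pt1 arrays, 16310, 11960 and 13910 on the OHP arrays and 30650, 23010 and 20160 on the parental arrays. Both variants were below parental cells on every array. The log2 difference was -0.65 ± 0.22 in Pt1 (limma adjusted p = 0.107) and -0.80 ± 0.22 in OHP (adjusted p = 0.0769), and both passed without OHP array 2 (0.0253 and 0.0473). With the replicate number as a block, PSAT1 passed as lower in OHP than in parental cells (limma adjusted p = 0.0288). The other PSAT1 probe was under background on all 9 arrays and gives no direction.

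ASNS, the glutamine-dependent asparagine synthetase, had intensities of 25850, 12980 and 12780 on the Pt1 arrays, 32130, 19790 and 30840 on the OHP arrays and 57540, 18190 and 13320 on the parental arrays. The lines overlapped, and parental array 1 was the highest of the 9. The log2 difference of Pt1 from parental cells was -0.57 ± 0.51 (limma adjusted p = 0.599), and -0.80 ± 0.46 by its other probe. MTHFD2, the mitochondrial folate enzyme, had 8991, 6841 and 7903 on the Pt1 arrays, 10520, 9263 and 10440 on the OHP arrays and 17640, 11450 and 8496 on the parental arrays. OHP was above Pt1 on every array, and the difference of Pt1 from parental cells was -0.61 ± 0.25 (adjusted p = 0.187). PHGDH, the first enzyme of serine synthesis, and SHMT2, which turns serine into glycine in mitochondria, had -0.06 ± 0.33 and -0.26 ± 0.32 in Pt1, and 0.31 ± 0.33 and 0.02 ± 0.32 in OHP. The differences of OHP without OHP array 2 were 0.12 for PHGDH and -0.33 for SHMT2.

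Separation of the arrays was read against all genes as well. Every Pt1 array was above every parental array for 8 of the 31 genes, where 18.2% of all genes were, and below for 7, where 21.2% were. Every OHP array was above every parental array for 0 of 31 (7.57% of all genes) and below for 3, PDIA4, SEL1L and PSAT1 (11.0%). OHP was above Pt1 for 8 (13.9%) and below for 2, PDIA6 and CANX (13.9%). All genes again include those at background.

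The stress response and amino acid genes also varied together among the parental arrays and, less so, among the Pt1 arrays. On parental array 1, all 14 genes of these roles were the highest of the 3 parental arrays, where 28.1% of the 8952 genes above background on all arrays were. Their median departure from the mean of the other parental arrays, in log2 of the background-corrected intensity, was 0.86, against -0.01 for those 8952 genes. At least 2-fold above lay 6 of the 14 (42.9%), against 0.648% of the 8952: DDIT3 (1.93 on the log2 scale), TRIB3 (1.95), CHAC1 (1.39), DDIT4 (1.12), ASNS (1.89) and PHGDH (1.12). On parental array 3, 12 of the 14 were the lowest of the line, with a median of -0.73.

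A smaller departure of the same kind was seen in Pt1, where 11 of the 14 were highest on array 1, against 32.5% of the 8952 genes, with a median of 0.44. The OHP arrays did not show one. Their medians were -0.1, -0.04 and 0.04 on arrays 1, 2 and 3, with 3, 6 and 5 of the 14 highest. The chaperones and folding enzymes did not share the departure of parental array 1, with a median of 0.08 on it. Of the 12 measured cytosolic aminoacyl-tRNA synthetases, which are not among the 31 genes, 11 were highest on parental array 1, with a median of 0.91, and 10 on Pt1 array 1. The genes were grouped by role and not by these values, but the departures were noticed in the data and carry no test. Their part in the differences between lines was not tested as a cause. Without both parental array 1 and OHP array 2, PPP1R15A kept a difference of 1.18 in OHP against Pt1 (limma adjusted p = 0.00394) and PDIA4 one of -0.88 in Pt1 against parental cells (adjusted p = 0.00536).

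**Figure D4:**
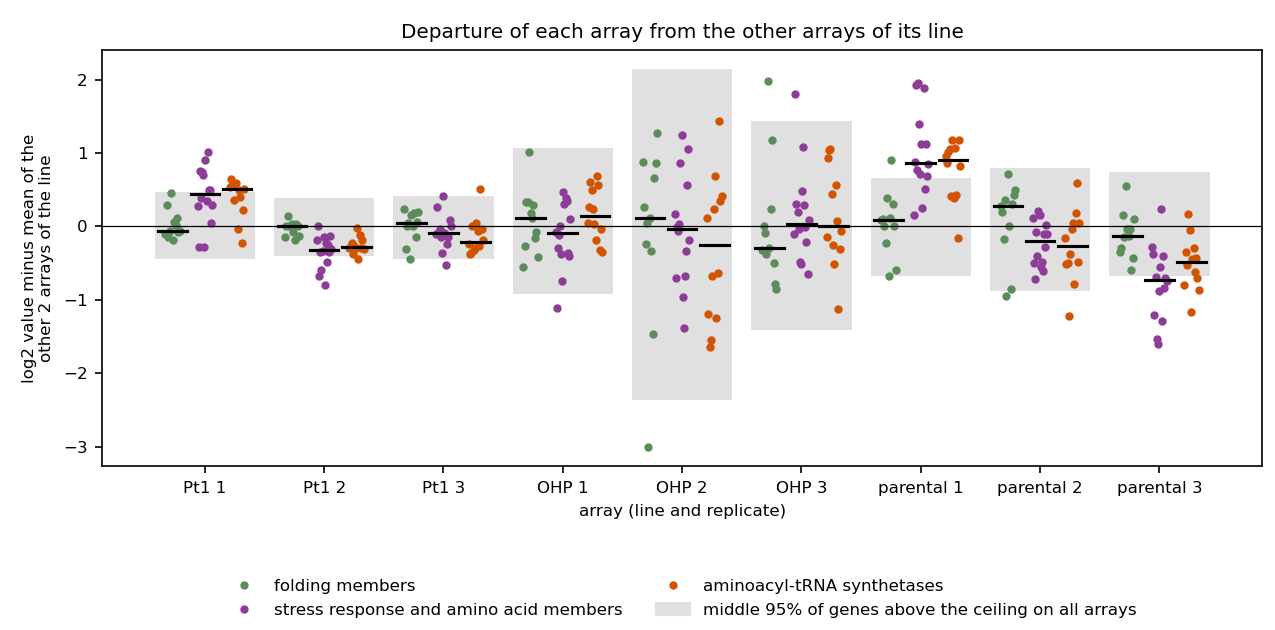
Departure of each stress response and amino acid gene on each array from the mean of the other arrays of its line, in log2 of the background-corrected intensity, by array (dots, with the folding genes and the aminoacyl-tRNA synthetases beside them). Bars are medians of a gene set and grey bands the middle 95% of genes above background on all arrays. All 14 genes lie above 0 on parental array 1, with a median of 0.86, and the median is 0.44 on Pt1 array 1 and -0.73 on parental array 3. On the OHP arrays the medians lie from -0.1 to 0.04.

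Genes of the same pathways outside the list gave a wider view. Of 96 listed, 91 were measured, and in Pt1 against parental cells 1 was called higher and 8 lower, 9 of 91 against 9.88% of all genes. In OHP against parental cells 0 were called higher and 3 lower, 3 of 91 against 5.41% of all genes, and in OHP against Pt1 6 higher and 2 lower, 8 of 91 against 7.59%. Without OHP array 2 the counts were 9 and 19, 8 and 4, and 10 and 7 in the same order. That is 30.8%, 13.2% and 18.7% of the 91, against 25.9%, 16.7% and 12.2% of all genes. All genes include those at background, while 86 of the 91 were above it on all arrays of a line. With all 9 arrays, a fit of the 10701 genes above background in that sense called 1846, 995 and 1443 of them.

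The amino acid transporters and enzymes held 5 of the 8 genes lower in Pt1 than in parental cells, 5 of 18 measured. Of all genes, 5.73% were called lower. The median log2 difference of the 18 was -0.09, with 8 above 0, and they also held the 1 gene called higher. SLC38A2 (SNAT2), a sodium-coupled carrier of neutral amino acids induced by amino acid lack, had intensities of 4756, 4099 and 5005 on the Pt1 arrays, 5042, 5931 and 5587 on the OHP arrays and 10770, 10430 and 11000 on the parental arrays. It fell in both variants, by 1.24 ± 0.15 on the log2 scale in Pt1 (limma adjusted p = 0.000601) and by 0.97 ± 0.15 in OHP (adjusted p = 0.00417). SLC1A5 (ASCT2), a glutamine carrier, had 4172, 4156 and 3879 on the Pt1 arrays, 7841, 11000 and 6013 on the OHP arrays and 12630, 10360 and 5908 on the parental arrays. All Pt1 arrays were below the other lines, at -1.19 ± 0.30 against parental cells (adjusted p = 0.0354), and OHP and parental cells overlapped.

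PYCR1, which completes proline synthesis, had intensities of 3701, 3043 and 3021 on the Pt1 arrays, 6855, 6415 and 6517 on the OHP arrays and 8339, 6045 and 5048 on the parental arrays. Pt1 was below parental cells by -0.99 ± 0.20 (limma adjusted p = 0.0126), and OHP was above Pt1 by 1.05 ± 0.20 (adjusted p = 0.0123). The other enzymes called in Pt1 against parental cells, ALDH18A1 (-0.52, adjusted p = 0.0373), which starts proline synthesis, and SHMT1 (-0.69, adjusted p = 0.0345), the cytosolic serine hydroxymethyltransferase, were higher in OHP than in Pt1 too (0.99, adjusted p = 0.00165, and 1.05, adjusted p = 0.00524). These genes, and SLC6A9, CEBPG and NUPR1, were named after their values were seen. SLC6A9, a glycine carrier, was above background on the Pt1 arrays alone, where it was at least 1.10-fold higher than in parental cells (adjusted p = 0.029) and at least 1.10-fold higher than in OHP (adjusted p = 0.0107).

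Of the synthetases, NARS1, which charges the asparagine tRNA, was called lower in Pt1 than in parental cells (-0.99 ± 0.23, limma adjusted p = 0.0226), with 21810, 21870 and 22590 on the Pt1 arrays against 52170, 44770 and 35680 on the parental arrays. The median of the 12 synthetases in that comparison was -0.59. On parental array 1, 11 of the 12 were the highest of the line, with a median departure of 0.91. The median difference without that array was not worked out. KLHL24, a ubiquitin ligase adaptor listed among the stress targets, had 652.7, 498 and 571.4 on the Pt1 arrays, 1055, 1325 and 1203 on the OHP arrays and 1010, 1197 and 1007 on the parental arrays. It was lower in Pt1 than in parental cells (-1.04 ± 0.18, adjusted p = 0.0055) and higher in OHP than in Pt1 (1.21 ± 0.18, adjusted p = 0.00293).

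Among other factors, 2 were called with all arrays, both higher in OHP than in Pt1. NUPR1, a stress-induced chromatin protein, had intensities of 2154, 1944 and 1842 on the OHP arrays, 361, 287.2 and 322.9 on the Pt1 arrays and 1890, 488.3 and 516.8 on the parental arrays. The difference of OHP from Pt1 was 3.06 ± 0.49 (limma adjusted p = 0.00458), with 2 of 3 Pt1 arrays above background, and parental array 1 read like OHP. CEBPG, a dimer partner of ATF4, differed by 1.40 ± 0.29 (adjusted p = 0.019). Without OHP array 2, both were also called lower in Pt1 than in parental cells (limma, NUPR1 -1.56, adjusted p = 0.0148, and CEBPG -0.98, adjusted p = 0.0135). NUPR1 was then called higher in OHP than in parental cells as well (1.51, adjusted p = 0.0458).

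In the ER, ERP29, a lumenal secretion factor, had intensities of 32260, 31040 and 30330 on the Pt1 arrays, 33720, 33960 and 33490 on the OHP arrays and 51170, 50690 and 48070 on the parental arrays. It was lower than in parental cells in Pt1 (-0.68 ± 0.13, limma adjusted p = 0.00945) and in OHP (-0.57 ± 0.13, adjusted p = 0.0357), where the call ended with the replicate number as a block (adjusted p = 0.0786). With its probes averaged the difference in Pt1 was -0.25 (adjusted p = 0.619). DERL2, a channel subunit that moves misfolded proteins out of the ER, had 1652, 1294 and 1690 on the OHP arrays, 3192, 3261 and 3047 on the Pt1 arrays and 2890, 3275 and 3174 on the parental arrays. It fell in OHP against parental cells (-1.07 ± 0.16, adjusted p = 0.00377) and was lower in OHP than in Pt1 (-1.09 ± 0.16, adjusted p = 0.0026), with no overlap.

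The calls of SLC38A2, KLHL24, DERL2 and NUPR1, and that of ALDH18A1 in OHP against Pt1, held in all 18 settings tried. Leaving out OHP array 2 alone ended no call of the other pathway genes named. Leaving out a single other array brought several calls above the threshold. For NARS1 these were each Pt1 array and parental arrays 1 and 2 (limma adjusted p up to 0.097). For SLC1A5 they were the same arrays and OHP array 1 (up to 0.136). PYCR1 needed Pt1 arrays 2 and 3 in both comparisons (up to 0.0636 in Pt1 against parental cells and 0.0656 in OHP against Pt1), and CEBPG needed both of them and OHP array 1 (up to 0.0937). SLC6A9 in Pt1 against parental cells needed each Pt1 array and parental arrays 1 and 3 (up to 0.117), and in OHP against Pt1 it needed Pt1 arrays 1 and 3 (up to 0.0573). In Pt1 against parental cells, SHMT1 needed every array of those 2 lines (up to 0.136), as did ALDH18A1 (up to 0.151), which also needed OHP array 1. ERP29 in OHP needed every array but OHP array 2 (up to 0.119). With probes averaged, the calls of ERP29, PYCR1, SHMT1 and SLC6A9 ended.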

How the data were processed

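Total RNA of 3 samples per line was measured on Illumina bead arrays, and the description of the series calls them biological replicates. The authors deposited intensity values on a linear scale for 48803 probes, made with BeadStudio (version not given) per the submitters' processing notes. The values show that quantile normalization had been done (sorted columns differ by at most 1.08%) but no background subtraction (125.1 to 71072.4). A second table holds 18 columns, 9 signals and 9 detection p-values, under names that no label ties to a sample, and these were not used. Because the intensities were already normalized, normexp with offset 50 was applied without a further quantile step, followed by log2.

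Of the probes, 28098 had 1 gene symbol, 13 had several and 20692 had none. The brightest probe stood for each of 6132 genes with several. A single linear model over the 9 arrays was fitted with limma 3.58.1 (R 4.3.3) without covariates (6 residual and 3.47 prior degrees of freedom), and Benjamini-Hochberg adjustment ran over 18852 genes within each comparison, 2-sided. Errors are SE and intervals are 95%. On simulated arrays with 200 changed genes among 18852 in Pt1 against parental cells, 0%, 22%, 84% and 90% of log2 changes of 0.5, 1, 2 and 3 were called, with 8 false calls. The simulated arrays were independent, with 1 spread per gene averaged over the 3 lines. An array standing apart, such as OHP array 2, and paired arrays were not simulated. Figures were drawn with matplotlib 3.10.9.

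The gene list, its roles and the lists of other pathway genes were chosen with earlier results of these data known. All members are named, and of each list of other genes the 3 called with the largest difference against parental cells, provided that the brighter line exceeded background on its 3 arrays. Other called genes of those lists are named as chosen afterwards. Deviations of same-numbered arrays from their lines' means correlated at 0.126, 0.671 and 0.502 between OHP and parental cells. This was read as a hint of pairing in that comparison, from the data and not from the labels. The deviations correlated at 0.182, 0.045 and -0.004 between Pt1 and parental cells and at 0.021, -0.011 and -0.192 between OHP and Pt1, where the numbers were not taken to pair samples. Arrays of unlike number were not correlated in this way, and the 3 deviations in a line depend on each other, so pairing was not tested. The fit with the replicate number as a block used the number in all 3 lines.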

Additional observations from a re-analysis of the deposited data

Results flagged for a closer look

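PPP1R15A is given here because its 2 effects against the same parental arrays differed from each other: the log2 difference was -1.07 ± 0.37 in Pt1 and 0.53 ± 0.37 in OHP (SE, n = 3 arrays each). The test of that difference is OHP against Pt1, at 1.60 ± 0.37 (limma adjusted p = 0.0304). OHP array 2, at 37030, was the highest of the 9 arrays for it, and without that array the difference was 1.18 (adjusted p = 0.00848).

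The same test of the difference between the variants was passed by 8 of the 91 measured genes of the wider pathway lists. Of all genes, 7.59% passed it. Higher in OHP than in Pt1 were NUPR1 (3.06), CEBPG (1.40), KLHL24 (1.21), SHMT1 (1.05), PYCR1 (1.05) and ALDH18A1 (0.99). DERL2 (-1.09) and SLC6A9 (fitted at -1.13, and at background in OHP) were lower in OHP than in Pt1. With probes averaged, the calls of PYCR1, SHMT1 and SLC6A9 ended. Those of PYCR1, CEBPG and SLC6A9 also ended with single arrays left out.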

How the results depend on the processing

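Counts of called genes moved more than the fitted values did. Leaving out 1 array in turn gave 0 to 3 genes of the list higher and 0 to 7 lower in Pt1 against parental cells, 0 to 4 and 0 to 2 in OHP against parental cells, and 0 to 2 and 0 to 2 in OHP against Pt1. Over all genes it gave 1039 to 4877, 590 to 3148 and 733 to 2297 calls (1863, 1020 and 1430 with all arrays), and 0 to 9 of the list by the F-test. Down-weighting arrays (limma array weights, which stopped before convergence) gave 4 higher and 8 lower in Pt1 against parental cells, 1 and 1 in OHP against parental cells and 6 and 3 in OHP against Pt1, with 12 by the F-test and 4889, 3371 and 4587 calls over all genes. Fitting only the 2 lines compared gave 3 higher and 7 lower in Pt1 against parental cells and 0 higher in OHP against Pt1, with 4882, 481 and 847 calls over all genes. Without background correction, 2 were lower in Pt1 and 1 in OHP against parental cells, with 1963 and 1128 calls over all genes. By the F-test 1 passed, as did 1 with an intensity trend. Calls over all genes by the F-test were counted in the main fit alone. Leaving out both OHP array 2 and parental array 1, a setting chosen after seeing the data, gave 2 higher and 3 lower in Pt1 against parental cells, 5 and 1 in OHP against parental cells, 6 and 2 in OHP against Pt1 and 12 by the F-test, with 4355, 2718 and 2372 calls over all genes.

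PDIA6 in OHP against parental cells was -0.04 with all arrays, -0.70 to 0.96 with 1 array left out (0.96 without OHP array 2) and 1.10 without both OHP array 2 and parental array 1. SHMT1 in Pt1 against parental cells was 0.03 with its probes averaged, against -0.69 by the brightest probe. Of the other values of single genes across settings, 2150 kept their side of the threshold, 96 passed it where the all-array value did not, and 67 no longer passed. Where a gene passed in neither fit its sign was not compared, and some of these signs turned. The causes were not tested. With the replicate number as a block, 3 genes were lower in Pt1 against parental cells (PDIA4, DNAJB11 at limma adjusted p = 0.0343 and PSAT1 at 0.0411) and 1 in OHP (PSAT1, 0.0288). Of all 18852 genes, 2095 and 1021 were called in that setting, in either direction. Among the other pathway genes named, it also gained CEBPG (0.0468) and NUPR1 (0.0373) in Pt1 against parental cells and SLC1A5 (0.0364) in OHP against Pt1, and it ended ALDH18A1 in Pt1 (0.0731) and ERP29 in OHP (0.0786) against parental cells. It changed no other call of the list or of the genes named. Slide as a block was not run, since no label ties slides to samples. The 3 arrays per line limit the precision, and 2 genes of the list at background on every array have no fold.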
